A study of Mus musculus with 50 samples.

Results

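The CLCA genes form a cluster on mouse chromosome 3, and 5 of them, Clca1, Clca2, Clca3a1, Clca4a and Clca4b, were followed here across 10 groups of colon samples, out of 19494 genes measured. These 5 were selected on their mean log2 signals over the 10 groups, for a pattern in which Clca4b was high and Clca1 low in the same colons. Their own levels and differences are therefore given as a description, without a test. Each was read by 1 probe set of the array. The array also carried Clca3a2 and Clca3b, 2 further genes of the cluster, which are given beside the members and were added after their values were seen.

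CLCA proteins were first named as calcium-activated chloride channels and are now understood as secreted or membrane-tethered proteins that cut themselves with a built-in metalloprotease and modulate chloride conductance in neighbouring cells. Clca1 is made by goblet cells, is a major protein of colonic mucus and processes the gel-forming mucin Muc2. In the airway it is induced by interleukin-13. Human CLCA4 is a gene of surface enterocytes, and Clca4a and Clca4b are its mouse counterparts. Clca3a1 is known in the mouse as a marker of lymphatic endothelium. CLCA2 is known from squamous epithelia.

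Total RNA of whole frozen colon from mice 11 weeks old was hybridised to 1 array per sample, with 5 samples in each group and 50 in all. Samples titled 1 to 30 comprised FADD IEC-KO Mlkl -/-, CASP8 IEC-KO Mlkl -/-, FADD IEC-KO Zbp1 -/-, CASP8 IEC-KO, FADD IEC-KO and Fadd fl/fl mice. Samples titled 86 to 124 comprised FADD IEC-KO RIPK3 IEC-KO, CASP8 IEC-KO, FADD IEC-KO and Casp8 fl/fl mice. IEC-KO stands for knockout in intestinal epithelial cells, and the sources used here do not name the Cre driver. Mlkl and Zbp1 were deleted in the whole animal as labelled, and RIPK3 in the epithelium. FADD and caspase-8 act together in death receptor signalling and restrain necroptosis, for which RIPK3 and MLKL are effectors and ZBP1 is one upstream sensor. All mice were kept in a specific pathogen free facility on chow. The single knockouts of samples 1 to 30 were both set against Fadd fl/fl, and those of samples 86 to 124 both against Casp8 fl/fl, so the floxed gene of the control was not always the deleted one, and comparisons within a series shared control arrays. What the 2 title-number series stand for is not given in the labels, and comparisons stayed within a series. Nothing in the labels states that samples of a group came from separate litters or cages.

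The labelled deletions of Fadd and Casp8 were visible in the bulk RNA of the single knockouts. The RNA of Mlkl, Zbp1 and RIPK3 was not checked here. Fadd was lower by a log2 difference of -0.99 ± 0.11 (SE) in FADD IEC-KO than in Fadd fl/fl colons (limma, adjusted p = 3.26e-07) and of -1.16 ± 0.11 in FADD IEC-KO than in Casp8 fl/fl colons (adjusted p = 4.83e-09). Casp8 was lower by -1.18 ± 0.11 in CASP8 IEC-KO than in Fadd fl/fl colons (limma, adjusted p = 2.24e-09) and by -1.52 ± 0.11 in CASP8 IEC-KO than in Casp8 fl/fl colons (adjusted p = 3.52e-13). The mean log2 signal of 10 epithelial marker genes was 10.82 to 11.02 in FADD IEC-KO and 10.71 to 11.00 in CASP8 IEC-KO against 10.73 to 10.82 in Fadd fl/fl, and 10.72 to 11.03 in FADD IEC-KO and 10.75 to 11.04 in CASP8 IEC-KO against 10.51 to 10.74 in Casp8 fl/fl. Of the 10, 2 rose in each FADD IEC-KO comparison and 1, the claudin Cldn7, in CASP8 IEC-KO against Casp8 fl/fl (0.30 ± 0.08; limma, adjusted p = 0.0387), where 8 were higher at an unadjusted p under 0.05. The shares of all genes that rose were 8.59% and 6.8% in FADD IEC-KO against Fadd fl/fl and Casp8 fl/fl, and 1.8% in CASP8 IEC-KO against Casp8 fl/fl. None passed in CASP8 IEC-KO against Fadd fl/fl (limma; 1 higher unadjusted). These counts were 0 to 4 with single arrays left out, the 4 without CASP8 IEC-KO array 108 and the 0 without CASP8 IEC-KO array 87 or 104 or Casp8 fl/fl array 91, 98, 105 or 119. The FADD IEC-KO counts of 2 became 1 without array 22, 23, 24, 25 or the Fadd fl/fl array 29 or 30, and without array 89 or 120 or the Casp8 fl/fl array 105. In bulk tissue, fewer cells of a type and less RNA per cell cannot be told apart.

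Of the 5 members, Clca2, Clca3a1 and Clca4b had an entry in the RefSeq table of promoter windows for assembly GRCm38.p6, which run from 250 bases before to 50 bases after the gene's start. The Clca4b window is shown because Clca4b separated both FADD IEC-KO groups from their floxed controls. It lies at chr3:144932480-144932779 on the minus strand, and the capitals mark matches to 3 short motifs, the CDX motif TTTATG, the TATA box core TATAAA (which reads TTTATA on the opposite strand) and the repeat TATATA:
Clca4b promoter: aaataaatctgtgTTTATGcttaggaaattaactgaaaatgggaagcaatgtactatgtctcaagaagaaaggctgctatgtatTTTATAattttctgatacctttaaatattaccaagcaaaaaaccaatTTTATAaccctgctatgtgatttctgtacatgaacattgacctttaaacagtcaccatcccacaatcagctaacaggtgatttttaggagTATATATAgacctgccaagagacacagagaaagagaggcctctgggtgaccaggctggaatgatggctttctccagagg

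The Clca4b window held TTTATG, a form of the sequence bound by CDX factors of the intestine, at position -237 from the start, TATAAA on the opposite strand at -166 and -119, and overlapping matches to TATATA at -29 and -27. Of 32851 promoter windows, 11.9% held TTTATG, 13.6% TATAAA and 5.67% TATATA, on either strand. The other motifs searched in it had no match in these letters. They were TTCNNNGAA for STAT dimers (in 8.3% of windows), TGANTCA for AP-1 (7.81%), and the longer motifs of STAT6 (6.95%), NF-kB (0.411%) and interferon response factors (3.44%). A match is a description of the letters and no evidence of binding.

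Clca3a2 and Clca3b are shown because both moved with Clca3a1 and because their start regions are nearly the same. Their windows lie at chr3:144819445-144819744 and chr3:144849253-144849552 on the minus strand of GRCm38.p6. Over a stretch of 100 bases around the start, 99 were identical, and the capital marks the 1 difference, G40A, with Clca3a2 first and positions counted from 1 at the 5′ end of the stretch:
Clca3a2, bases 182 to 281 of its window: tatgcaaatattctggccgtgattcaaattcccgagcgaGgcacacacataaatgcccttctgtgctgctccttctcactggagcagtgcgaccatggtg
Clca3b, bases 174 to 273 of its window: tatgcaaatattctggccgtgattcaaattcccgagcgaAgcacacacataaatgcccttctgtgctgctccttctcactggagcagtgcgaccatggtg

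In every other pairing of the 5 CLCA windows, the best ungapped stretch of 100 bases shared 42 to 47 bases. The Clca3a2 and Clca3b stretches each held TGANTCA (as TGATTCA, at -50 in Clca3a2 and -58 in Clca3b) and TTTATG on the opposite strand. Where transcripts are as alike as these start regions, array probes could read more than 1 of them, and the levels of Clca3a2 and Clca3b are uncertain in that respect.

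Clca4b ranged from 6.80 to 12.60 in log2 signal over the 50 arrays. It was highest in FADD IEC-KO colons of both series, variable in CASP8 IEC-KO colons, and close to the floxed level in most colons that had also lost Mlkl, RIPK3 or Zbp1. All 10 FADD IEC-KO arrays and 6 of 10 CASP8 IEC-KO arrays read above the highest of the 10 floxed arrays, as did 6 of 20 arrays of the co-deletions.

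In samples 1 to 30, Clca4b read 10.02, 12.60, 12.02, 11.88 and 12.37 in FADD IEC-KO (arrays 21 to 25), against 7.46, 7.39, 6.90, 6.96 and 6.93 in Fadd fl/fl (arrays 26 to 30). The groups did not overlap, and array 21 was the lowest of the knockouts. The means were 11.78 ± 1.02 in FADD IEC-KO and 7.13 ± 0.27 in Fadd fl/fl (SD, n = 5 each), a log2 difference of 4.65 ± 0.74 (SE), or 25.1-fold. This SE is pooled over all 10 groups and is the same in every comparison of Clca4b. The group SDs ran from 0.27 in Fadd fl/fl to 2.28 in CASP8 IEC-KO of samples 86 to 124, which the SE does not reflect. In samples 86 to 124, Clca4b read 10.20, 8.90, 12.59, 9.10 and 12.29 in FADD IEC-KO (arrays 89, 95, 117, 120 and 124), against 7.67, 7.47, 7.99, 7.06 and 7.10 in Casp8 fl/fl (arrays 86, 91, 98, 105 and 119). The groups again did not overlap, but arrays 117 and 124 stood well above the other three knockouts. The means were 10.62 ± 1.74 in FADD IEC-KO and 7.46 ± 0.39 in Casp8 fl/fl, a difference of 3.16 ± 0.74, or 8.93-fold. Of all genes, 4.23% were higher without overlap in FADD IEC-KO than in Fadd fl/fl and 4.51% in FADD IEC-KO than in Casp8 fl/fl. These shares are only a background, since the rule used the same values.

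CASP8 IEC-KO colons were split. In samples 1 to 30, Clca4b read 7.60, 11.20, 8.05, 8.87 and 7.97 in CASP8 IEC-KO (arrays 16 to 20), all above the Fadd fl/fl arrays, with a mean of 8.74 ± 1.45. The difference was 1.61 ± 0.74, or 3.05-fold, and 0.99 without array 17, the only one of the 5 above 9. In samples 86 to 124, it read 12.01, 7.72, 9.93, 12.24 and 7.44 in CASP8 IEC-KO (arrays 87, 92, 100, 104 and 108), with a mean of 9.87 ± 2.28. Here 2 colons came close to the highest FADD IEC-KO colons and 2 lay within the Casp8 fl/fl range, so the groups overlapped at a mean difference of 2.41 ± 0.74. Of all genes, 1.11% were higher without overlap in CASP8 IEC-KO than in Fadd fl/fl and 1.68% in CASP8 IEC-KO than in Casp8 fl/fl.

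Set directly against each other, the single knockouts overlapped for Clca4b in both series. The CASP8 IEC-KO minus FADD IEC-KO difference was -3.04 ± 0.74 in samples 1 to 30 and -0.75 ± 0.74 in samples 86 to 124. The second value moved between -1.34 and -0.14 as single arrays were left out, with array 104 and array 108 of CASP8 IEC-KO at the ends of that range. It also passed beyond a 1.5-fold change in size without CASP8 IEC-KO arrays 87 (-1.29) or 92 (-0.21), or without FADD IEC-KO arrays 95 (-1.18), 117 (-0.26), 120 (-1.13) or 124 (-0.33). No member separated the single knockouts in either series, where 1.35% of all genes were higher and 1.55% lower without overlap in samples 1 to 30, and 0.6% and 0.626% in samples 86 to 124.

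**Figure D1:**
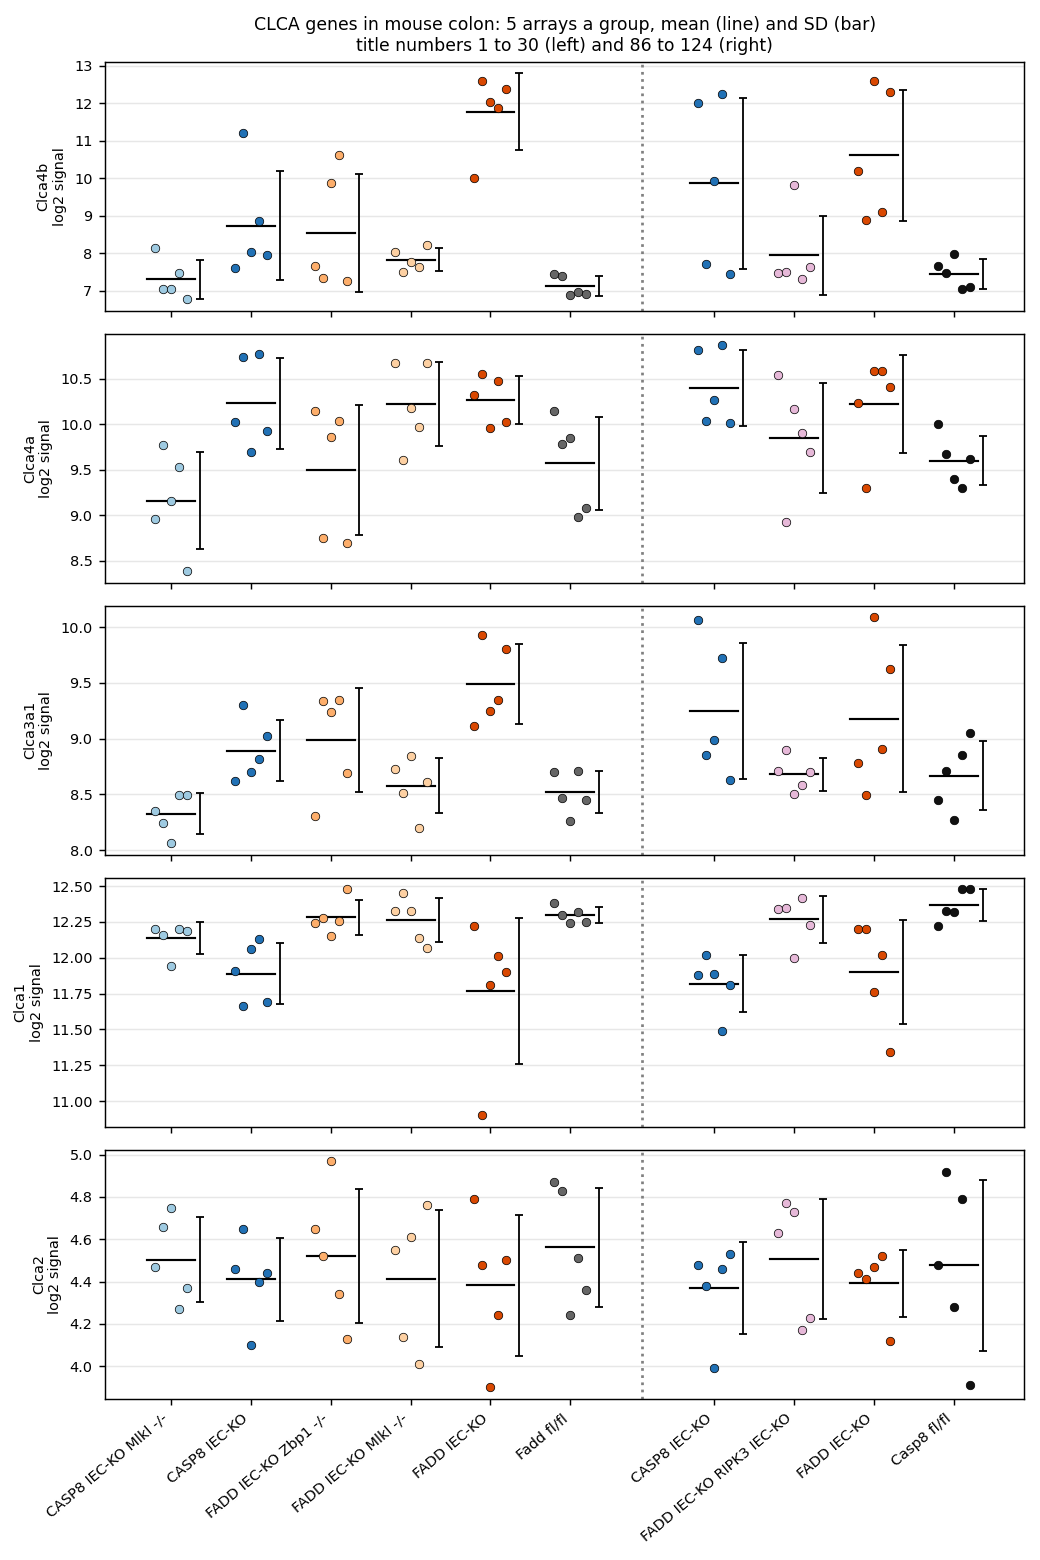
Log2 signal of the 5 CLCA genes (1 panel each, own vertical scale) on each array, by group, with the group mean as a line and the SD as a bar, 5 arrays a group. Clca4b spans 6.80 to 12.60 and is highest in FADD IEC-KO, Clca1 is lowest in the single knockouts, and Clca2 stays between 3.90 and 4.97.

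Loss of a necroptosis gene in FADD IEC-KO mice went with a lower Clca4b. It read 8.05, 7.51, 7.76, 7.64 and 8.23 in FADD IEC-KO Mlkl -/- (arrays 11 to 15), with a mean of 7.84 ± 0.30, below every FADD IEC-KO array of the same series. The FADD IEC-KO Mlkl -/- minus FADD IEC-KO difference was -3.94 ± 0.74, a level 15.3-fold lower. Of all genes, 2.28% were lower and 2.01% higher without overlap in this comparison, and Clca4b and Clca3a1 were the 2 members among the lower ones. In FADD IEC-KO Zbp1 -/- the values were 7.67, 7.35, 9.88, 10.61 and 7.26 (arrays 1 to 5), with a mean of 8.55 ± 1.57. Arrays 3 and 4 were raised and the other three lay within the range of the 10 floxed arrays, so the group overlapped FADD IEC-KO at a difference of -3.22 ± 0.74. Deletion of RIPK3 gave 7.47, 7.51, 9.82, 7.31 and 7.65 in colons of FADD IEC-KO RIPK3 IEC-KO mice (arrays 88, 93, 112, 113 and 123), with a mean of 7.95 ± 1.05. A single colon, array 112, was raised, and the difference from FADD IEC-KO of the same series was -2.66 ± 0.74, with overlap.

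In the caspase-8 line, Clca4b read 8.15, 7.06, 7.04, 7.48 and 6.80 in CASP8 IEC-KO Mlkl -/- (arrays 6 to 10), with a mean of 7.31 ± 0.53. The difference from CASP8 IEC-KO was -1.43 ± 0.74, with overlap, and -0.81 without CASP8 IEC-KO array 17. Against the floxed controls of their series, the co-deletions differed by 1.43 ± 0.74 in FADD IEC-KO Zbp1 -/-, 0.71 ± 0.74 in FADD IEC-KO Mlkl -/-, 0.49 ± 0.74 with RIPK3 lost and 0.18 ± 0.74 in CASP8 IEC-KO Mlkl -/-. FADD IEC-KO Mlkl -/- was the only one of the 4 without overlap with its floxed group, since its lowest array read 7.51 and the highest Fadd fl/fl array 7.46. Of all genes, 1.79%, 1.21%, 1.68% and 1.32% were higher without overlap in these 4 comparisons, in that order. Without array 4 the first difference was 0.91, and without array 112 the third was 0.03. Ordered by mean, Clca4b went from FADD IEC-KO of samples 1 to 30 through FADD IEC-KO and CASP8 IEC-KO of samples 86 to 124, CASP8 IEC-KO of samples 1 to 30, FADD IEC-KO Zbp1 -/-, FADD IEC-KO RIPK3 IEC-KO, FADD IEC-KO Mlkl -/-, Casp8 fl/fl and CASP8 IEC-KO Mlkl -/- to Fadd fl/fl. Each step between neighbours in this order was smaller than the larger of their SDs.

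Clca1, the mucus protein of goblet cells, was lower in the single knockouts. Its mean of 12.1 was above that of 99.8% of genes, near the top of the arrays' scale. The sizes of differences read by different probe sets are therefore not compared, and whether so bright a signal was compressed was not tested. It read 12.22, 10.90, 11.81, 12.01 and 11.90 in FADD IEC-KO (arrays 21 to 25), against 12.38, 12.30, 12.24, 12.32 and 12.25 in Fadd fl/fl (arrays 26 to 30). The groups did not overlap, and array 22, which had the highest Clca4b of all arrays, had the lowest Clca1 of all. The means were 11.77 ± 0.51 in FADD IEC-KO and 12.30 ± 0.06 in Fadd fl/fl, a difference of -0.53 ± 0.15, or 1.45-fold lower, and of -0.32 without array 22. In samples 86 to 124, Clca1 read 12.20, 12.20, 11.76, 12.02 and 11.34 in FADD IEC-KO (arrays 89, 95, 117, 120 and 124), against 12.22, 12.33, 12.32, 12.48 and 12.48 in Casp8 fl/fl (arrays 86, 91, 98, 105 and 119). In both series the separation rested on a narrow gap between the highest knockout and the lowest control. These read 12.22 and 12.24 in samples 1 to 30, and 12.20 and 12.22 in samples 86 to 124. The means were 11.90 ± 0.36 in FADD IEC-KO and 12.36 ± 0.11 in Casp8 fl/fl, a difference of -0.46 ± 0.15.

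CASP8 IEC-KO colons had a lower Clca1 with less spread. It read 11.91, 11.66, 12.06, 12.13 and 11.69 in CASP8 IEC-KO of samples 1 to 30 (mean 11.89 ± 0.21), a difference of -0.41 ± 0.15 from Fadd fl/fl. It read 11.88, 12.02, 11.89, 11.49 and 11.81 in CASP8 IEC-KO of samples 86 to 124 (mean 11.82 ± 0.20), a difference of -0.54 ± 0.15 from Casp8 fl/fl. Neither group overlapped its controls. With each array centred on the epithelial markers, which were higher in CASP8 IEC-KO than in Casp8 fl/fl on every array, the second difference was -0.79. In all, 19 of 20 single-knockout arrays, 9 of 10 from FADD IEC-KO and 10 of 10 from CASP8 IEC-KO, read below the lowest of the 10 floxed arrays. The shares of all genes lower without overlap were 4.97% and 2.48% for FADD IEC-KO against Fadd fl/fl and Casp8 fl/fl, and 1.6% and 1.26% for CASP8 IEC-KO against the same controls.

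The co-deletions had mean Clca1 levels nearer to the floxed ones than the single knockouts had. Still, 9 of their 20 arrays read below the lowest of the 10 floxed arrays, among them all 5 of CASP8 IEC-KO Mlkl -/-. Clca1 ranged from 12.15 to 12.48 in FADD IEC-KO Zbp1 -/- (mean 12.28 ± 0.12), from 12.07 to 12.45 in FADD IEC-KO Mlkl -/- (12.26 ± 0.16) and from 12.00 to 12.42 where FADD IEC-KO was joined with RIPK3 IEC-KO (12.27 ± 0.16). Relative to FADD IEC-KO of their series these were differences of 0.52 ± 0.15, 0.50 ± 0.15 and 0.36 ± 0.15, in that order, each with overlap. Single FADD IEC-KO arrays weighed on all 3: without array 22 the first was 0.30 and the second 0.28, and without array 124 the third was 0.22. In CASP8 IEC-KO Mlkl -/-, Clca1 read 12.20, 12.16, 11.94, 12.20 and 12.19 (mean 12.14 ± 0.11), which was 0.25 ± 0.15 above CASP8 IEC-KO and, without overlap, -0.16 ± 0.15 from Fadd fl/fl. Of all genes, 1.5% were lower without overlap in that last comparison. Ordered by mean, the 2 floxed groups were highest, the 4 co-deletions followed and the 4 single-knockout groups were lowest, and each step between neighbours was smaller than the larger of their SDs.

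**Figure D2:**
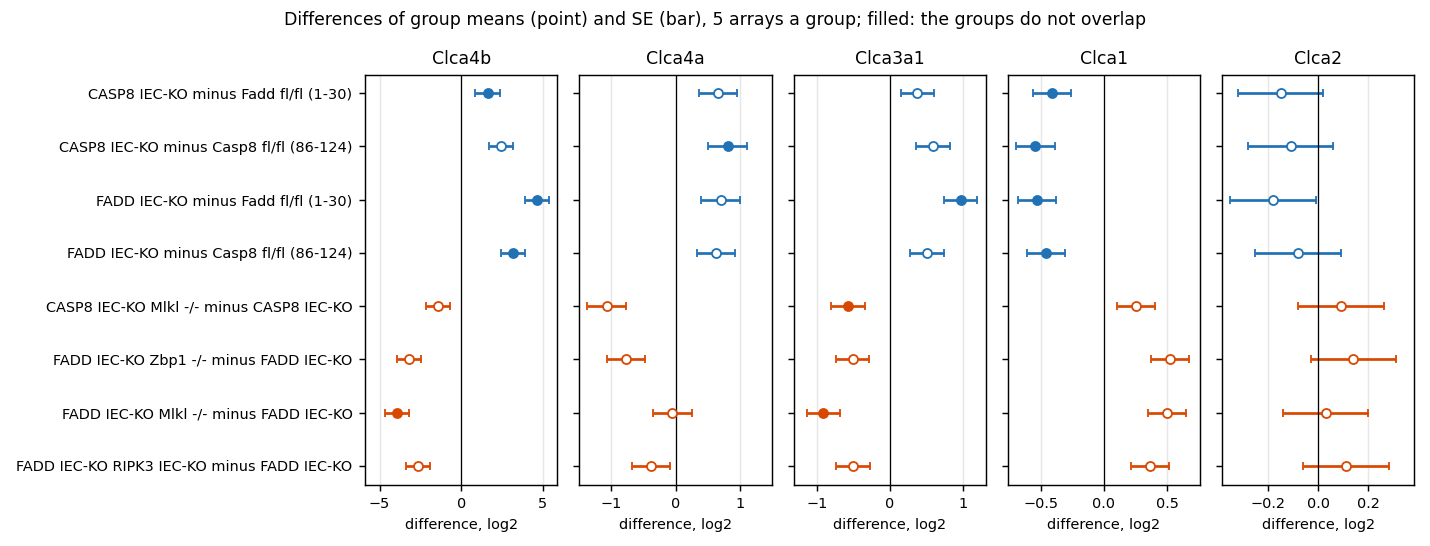
Difference of group means (horizontal axis, log2, own scale for each gene) with its SE as a bar, in 4 comparisons with floxed controls (blue) and 4 of co-deletions with the single knockout (orange), 5 arrays a group; filled points mark groups that do not overlap. Clca4b is positive in the blue comparisons (1.61 to 4.65) and negative in the orange ones, and Clca1 has the opposite signs throughout.

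The opposed pattern did not hold colon by colon in the caspase-8 line. In CASP8 IEC-KO arrays 16, 20, 92 and 108, Clca4b was 7.60, 7.97, 7.72 and 7.44, within the range of the 10 floxed arrays. Clca1 was 11.91, 11.69, 12.02 and 11.81 on the same arrays, below all floxed arrays. Conversely, FADD IEC-KO Zbp1 -/- array 4 had a raised Clca4b of 10.61 with a Clca1 of 12.26, inside the floxed range. Across the 50 arrays, which share their groups, Clca1 and Clca4b correlated at r = -0.70 and rho = -0.62. Within groups, after each group's mean was taken away, r was -0.52, and without arrays 22 and 117, the 2 farthest from the median of Clca4b, the correlation over 48 arrays was r = -0.66.

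**Figure D3:**
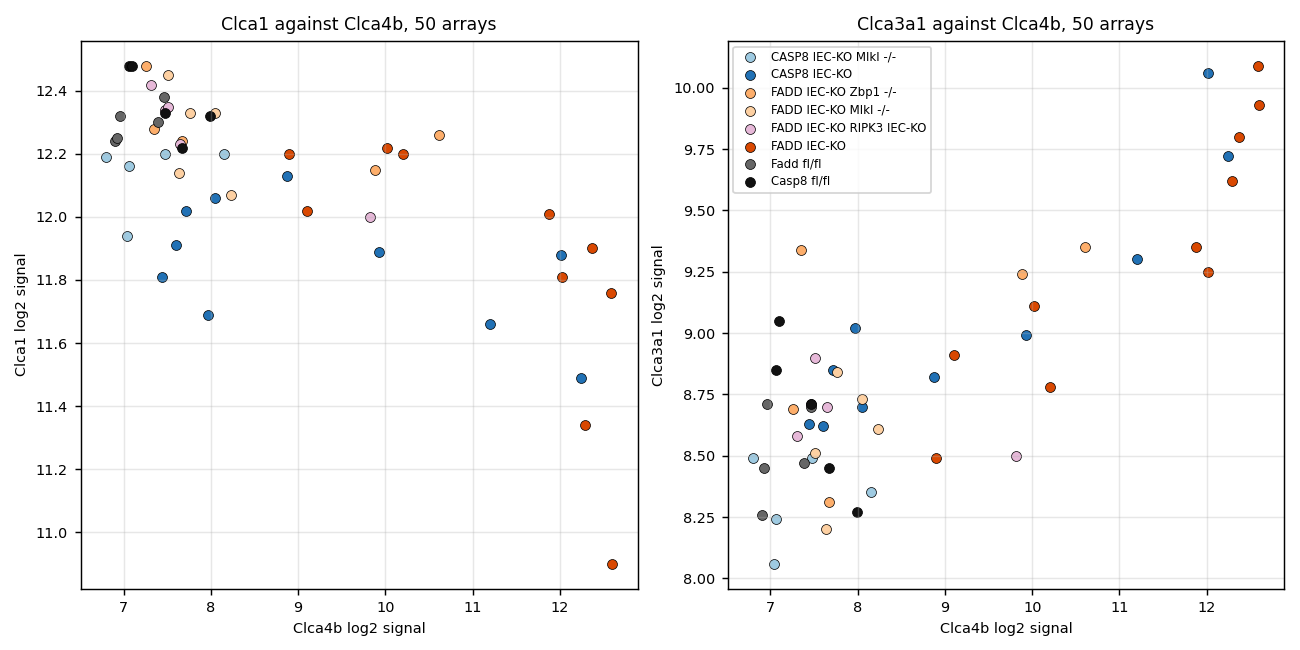
Log2 signal of Clca1 (left) and Clca3a1 (right) against that of Clca4b, 1 point an array, 50 arrays, coloured by genotype. Clca1 is lowest (10.90) where Clca4b is highest (12.60), 4 CASP8 IEC-KO arrays combine a Clca4b below 8 with a Clca1 of 11.69 to 12.02, and Clca3a1 is above 9.5 only on arrays with Clca4b above 12.

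Clca4a, the neighbour and close relative of Clca4b, was higher in the mean of the single knockouts, with overlap in 3 of 4 comparisons. It read 10.32, 10.55, 9.96, 10.48 and 10.02 in FADD IEC-KO of samples 1 to 30, against 10.15, 9.78, 9.85, 8.98 and 9.08 in Fadd fl/fl, a difference of 0.70 ± 0.30. It read 10.23, 9.30, 10.59, 10.58 and 10.41 in FADD IEC-KO of samples 86 to 124, against 10.00, 9.67, 9.40, 9.30 and 9.62 in Casp8 fl/fl, a difference of 0.63 ± 0.30. Array 95 was the only knockout of the second pair within the range of its controls. CASP8 IEC-KO gave 10.02, 10.74, 9.69, 10.77 and 9.92 in samples 1 to 30 and 10.82, 10.04, 10.27, 10.87 and 10.01 in samples 86 to 124. The differences were 0.66 ± 0.30 from Fadd fl/fl, with overlap, and 0.81 ± 0.30 from Casp8 fl/fl, without overlap, at 10.01 for the lowest CASP8 IEC-KO array and 10.00 for the highest Casp8 fl/fl array. The CASP8 IEC-KO minus FADD IEC-KO differences of Clca4a were -0.04 ± 0.30 in samples 1 to 30 and 0.18 ± 0.30 in samples 86 to 124.

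Clca4a also departed from Clca4b in the co-deletions. FADD IEC-KO Mlkl -/- had 9.61 to 10.67 (mean 10.22 ± 0.46), a difference of -0.05 ± 0.30 from FADD IEC-KO and of 0.65 ± 0.30 from Fadd fl/fl. CASP8 IEC-KO Mlkl -/- had 8.38 to 9.77 (9.16 ± 0.54), a difference of -1.07 ± 0.30 from CASP8 IEC-KO and of -0.41 ± 0.30 from Fadd fl/fl. The difference with Mlkl loss was thus lower in the caspase-8 line than in the FADD line by -1.02 in log2 terms, which was not tested. The difference from Fadd fl/fl was -0.26 without Fadd fl/fl array 26 and -0.21 without CASP8 IEC-KO Mlkl -/- array 10. FADD IEC-KO Zbp1 -/- had 8.69 to 10.15 (9.49 ± 0.72), a difference of -0.77 ± 0.30 from FADD IEC-KO. FADD IEC-KO RIPK3 IEC-KO had 8.92 to 10.54 (9.84 ± 0.61), a difference of -0.38 ± 0.30 that became -0.61 without FADD IEC-KO array 95 and -0.15 without array 93 of the co-deletion.

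Clca3a1 differed in the direction of Clca4b. It read 9.11, 9.93, 9.25, 9.35 and 9.80 in FADD IEC-KO of samples 1 to 30, against 8.70, 8.47, 8.26, 8.71 and 8.45 in Fadd fl/fl, without overlap and with a difference of 0.97 ± 0.23. It read 8.78, 8.49, 10.09, 8.91 and 9.62 in FADD IEC-KO of samples 86 to 124, against 8.45, 8.71, 8.27, 8.85 and 9.05 in Casp8 fl/fl, with overlap. That difference was 0.51 ± 0.23, and 0.29 without array 117. Arrays 117 and 124, which had the highest Clca4b of their group, also had its highest Clca3a1. In CASP8 IEC-KO the differences were 0.38 ± 0.23 from Fadd fl/fl and 0.59 ± 0.23 from Casp8 fl/fl, both with overlap, and the second was 0.38 without array 87, which read 10.06.

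With Mlkl lost as well, Clca3a1 read 8.20 to 8.84 in FADD IEC-KO Mlkl -/- (mean 8.58 ± 0.24), below every FADD IEC-KO array of that series, with a difference of -0.91 ± 0.23. It read 8.06 to 8.49 in CASP8 IEC-KO Mlkl -/- (8.33 ± 0.18), below every CASP8 IEC-KO array of that series, with a difference of -0.57 ± 0.23. Of all genes, 2.09% were lower and 1.93% higher without overlap in the comparison of CASP8 IEC-KO Mlkl -/- with CASP8 IEC-KO, and Clca3a1 was the single member. The differences were -0.51 ± 0.23 for Zbp1 and -0.50 ± 0.23 for RIPK3 loss in FADD IEC-KO, both with overlap, and the RIPK3 value was -0.28 without FADD IEC-KO array 117. No member separated FADD IEC-KO Zbp1 -/- or FADD IEC-KO RIPK3 IEC-KO from FADD IEC-KO, where 2.77% and 1.94% of all genes were lower and 3.03% and 1.34% higher without overlap.

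Clca3a2 and Clca3b had nearly the same course as Clca3a1. Against Fadd fl/fl, FADD IEC-KO colons differed by 0.90 ± 0.27 for Clca3a2 and 0.85 ± 0.17 for Clca3b, both without overlap. Against FADD IEC-KO, FADD IEC-KO Mlkl -/- colons differed by -0.79 ± 0.27 and -0.83 ± 0.17, again without overlap. Over the 50 arrays Clca3a1 correlated with Clca3b at r = 0.95 and with Clca3a2 at r = 0.92, and at 0.91 and 0.92 within groups. As a check on the lymphatic endothelium for which Clca3a1 is known, 7 lymphatic markers were read. None of the 7 passed the test upward in any single knockout against its floxed group (limma), and Lyve1, a hyaluronan receptor of lymphatic vessels, fell by 0.80 on the log2 scale in FADD IEC-KO against Fadd fl/fl (limma, adjusted p = 0.00693) and by 0.82 in CASP8 IEC-KO against Casp8 fl/fl (adjusted p = 0.0311). Among all genes, 10.1% fell in the former comparison and 0.662% in the last. Without CASP8 IEC-KO array 87 or 104 or Casp8 fl/fl array 105 or 119, 0 of 7 passed in the last comparison, and 2 without array 92 or 100. In FADD IEC-KO against Casp8 fl/fl 0 passed, but 1 was higher and 3 lower at an unadjusted p under 0.05, the higher one being Pdpn at 8.04 in FADD IEC-KO and 7.60 in Casp8 fl/fl (limma, adjusted p = 0.0694). There 1 passed without array 120 or 124 and 2 without array 95. In CASP8 IEC-KO against Fadd fl/fl 0 passed, with 0 at an unadjusted p under 0.05. In FADD IEC-KO against Fadd fl/fl, 1 of the 7 was higher and 2 lower at an unadjusted p under 0.05, these being Lyve1, Pdpn and Prox1. There 3 passed without array 21 and 2 without array 25 or the control array 30. The mean of the 7 markers was 6.79 to 7.22 in FADD IEC-KO and 6.95 to 7.40 in Fadd fl/fl.

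Clca2 differed little between groups. Its group means ran from 4.37 to 4.56, and its arrays from 3.90 to 4.97, with every pair of groups compared overlapping. Its largest difference from a floxed group was -0.18 ± 0.17, in FADD IEC-KO against Fadd fl/fl. No detection calls were used, so whether this signal was above background is not known. Of 11 measured squamous epithelium genes, the setting in which CLCA2 is known, 0 passed in any single knockout against its floxed group (limma, adjusted p under 0.05). At an unadjusted p under 0.05, 1 gene was lower in each comparison with Fadd fl/fl and 1 higher in each with Casp8 fl/fl. A single gene passed against Fadd fl/fl without FADD IEC-KO array 21, and against Casp8 fl/fl without CASP8 IEC-KO array 108. Their mean stayed between 5.05 and 5.39 on those arrays.

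The genes most like each member were sought by Pearson's r over the 50 arrays, as a description in which arrays of a group are not independent. For Clca4b they were Plet1, an epithelial surface protein of wound repair, and Ddah1, which breaks down methylated arginines (r = 0.92 each), Dhrs9, a retinol dehydrogenase, and Duoxa2, the maturation factor of the epithelial oxidase Duox2 (0.91 each), and Trim40 (0.90). Within groups these r values were 0.81 to 0.88. For Clca3a1, Clca3b and Clca3a2 came first, then Pglyrp1, an antibacterial peptidoglycan receptor, Nos2, the inducible nitric oxide synthase, and Tnip3 (0.88 each). For Clca4a they were Ly6m (0.83), Krt20, a keratin of mature surface colonocytes (0.81), Hif1a (0.77), Sgk2 (0.76) and Emp1 (0.75). Clca1, whose group means varied too little for the rule and which was added later, was most like Hepacam2 (0.89), Gal3st2 (0.87), the mucosal pentraxins Mptx1 (0.86) and Mptx2 (0.85), and Klk1 (0.84). For Clca2, added in the same way, no gene exceeded r = 0.52. By Spearman's rho, 1 of these 5 genes remained among the top 5 for Clca4b, 3 of 5 for Clca3a1, 4 of 5 for Clca4a, 4 of 5 for Clca1 and 3 of 5 for Clca2.

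Genes of the surrounding stretch of chromosome 3 were then read in order, 10 on either side. The nearest on both sides, Sh3glb1 and Odf2l, differed by -0.01 ± 0.07 and -0.05 ± 0.10 between FADD IEC-KO and Fadd fl/fl. Further out, Ddah1 rose by 2.66 ± 0.37 in FADD IEC-KO against Fadd fl/fl (limma, adjusted p = 1.27e-05), by 1.89 ± 0.37 in FADD IEC-KO against Casp8 fl/fl (adjusted p = 0.000598) and by 1.62 ± 0.37 in CASP8 IEC-KO against Casp8 fl/fl (adjusted p = 0.0159). Its difference in CASP8 IEC-KO against Fadd fl/fl was 1.40 ± 0.37 and missed the threshold (limma, adjusted p = 0.105). At the other end, the interferon-inducible GTPases Gbp2, Gbp3 and Gbp7 rose in FADD IEC-KO of both series, Gbp2 by 2.21 ± 0.44 against Fadd fl/fl (limma, adjusted p = 0.00052) and 2.13 ± 0.44 against Casp8 fl/fl (adjusted p = 0.00114). In all, 5 of 20 neighbours rose and 0 fell in FADD IEC-KO against Fadd fl/fl, the fifth being 2410004B18Rik at 0.39 ± 0.11, and 4 rose and 1, Pkn2 at -0.22 ± 0.07, fell against Casp8 fl/fl. Over all genes, 8.59% rose and 10.1% fell in the first of these comparisons, and 6.8% and 4.25% in the second. Without arrays 22 and 23, an alternative chosen after seeing the data, 2 of the 20 passed in the first. In CASP8 IEC-KO against Casp8 fl/fl, where Ddah1 was the 1 that passed, 0 passed without array 87 or 104 and 2 without array 108.

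**Figure D4:**
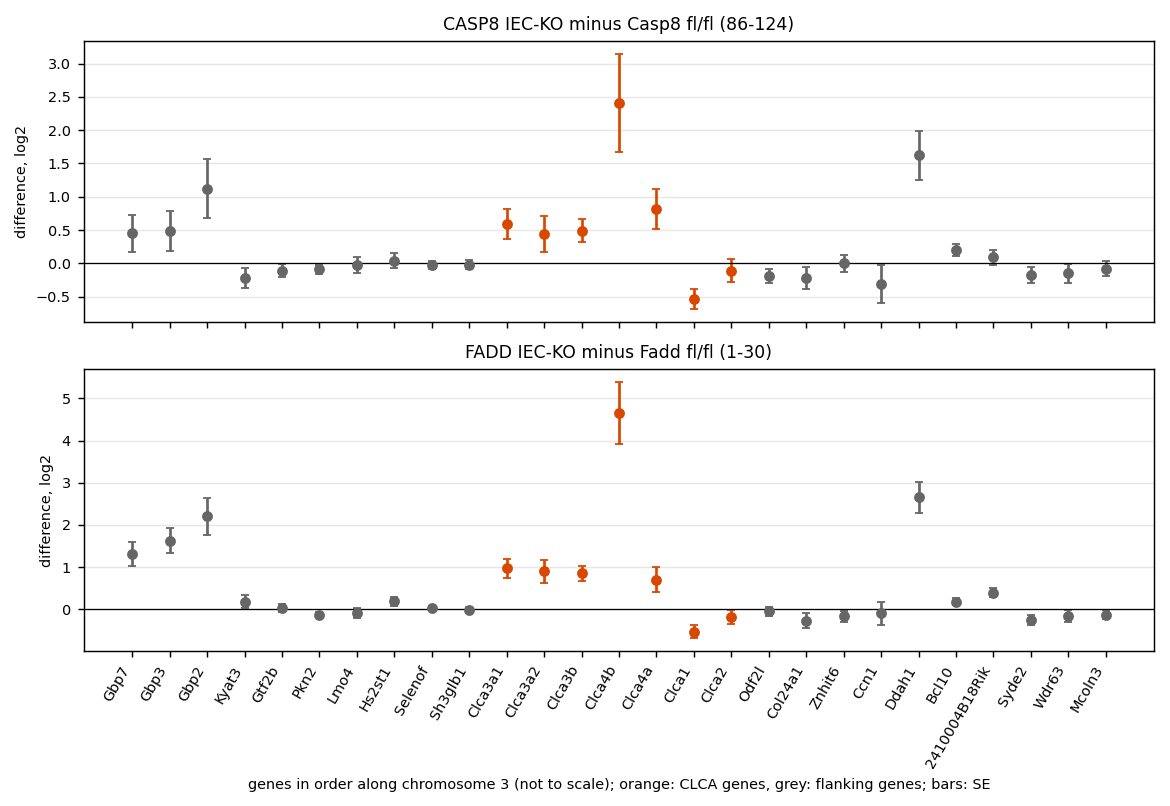
Difference of group means (vertical axis, log2) with its SE for 27 genes in their order along chromosome 3 (horizontal axis, not to scale), CLCA genes in orange and flanking genes in grey, in CASP8 IEC-KO against Casp8 fl/fl (top) and FADD IEC-KO against Fadd fl/fl (bottom). Clca4b (2.41 and 4.65) and Ddah1 (1.62 and 2.66) are highest, followed by Gbp2 (1.12 and 2.21). In the bottom panel Gbp3 (1.63) and Gbp7 (1.31) come next. The genes next to the cluster on both sides lie between -0.19 and -0.01.

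Other mucus and goblet cell genes differed both ways. Of 20 measured, 5 rose and 2 fell in FADD IEC-KO against Fadd fl/fl, with a median difference of 0.06 (-0.02 over all genes). In this comparison 8.59% of all genes rose and 10.1% fell, so the 2 of 20 that fell were near the share over all genes. Retnlb, an antibacterial resistin-like protein, rose by 5.23 ± 0.79 (limma, adjusted p = 4.57e-05), Spink4 by 0.93 ± 0.17 (adjusted p = 0.000285) and Fut2, a fucosyltransferase, by 0.76 ± 0.18 (adjusted p = 0.00207). Muc2, the substrate of Clca1, differed by 0.09 ± 0.06 (limma, adjusted p = 0.332). In samples 86 to 124, 3 of 20 rose and 0 fell in FADD IEC-KO against Casp8 fl/fl, namely the same 3 genes, with Retnlb at 2.44 ± 0.79 (limma, adjusted p = 0.0387). The shares over all genes were 6.8% and 4.25% there. In CASP8 IEC-KO, 1 of 20 passed against Fadd fl/fl, the trefoil factor Tff3 at -0.48 ± 0.11 (limma, adjusted p = 0.0458), where 0.0564% of all genes rose and 0.0667% fell. At an unadjusted p under 0.05, 8 of the 20 were lower and 0 higher in that comparison, the direction of Clca1, among them Muc2 at -0.19 ± 0.06 (limma, adjusted p = 0.207). Of these 20, 5 were lower without overlap. Against Casp8 fl/fl 0 of 20 passed, and 1.8% of all genes rose and 0.662% fell. At an unadjusted p under 0.05, 3 were higher and 1 lower in this second comparison, where Muc2 differed by -0.10 ± 0.06 (limma, adjusted p = 0.393). Klk1, 1 of the 2 that fell in FADD IEC-KO against Fadd fl/fl (-0.64 ± 0.15; limma, adjusted p = 0.00221), is also among the genes most like Clca1 over the arrays. The count of 7 in FADD IEC-KO against Fadd fl/fl was 3 without arrays 22 and 23. The count of 3 was 1 without array 117, 124 or the Casp8 fl/fl array 86, and 5 without array 95. Tff3 no longer passed without any one of CASP8 IEC-KO arrays 16, 17 and 19 and Fadd fl/fl arrays 26, 29 and 30, and 1 gene passed against Casp8 fl/fl without CASP8 IEC-KO array 92 or 108.

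Ion transport genes of the colon, the setting in which CLCA proteins were first described, were lower in FADD IEC-KO where they passed. Of 17 measured, 0 rose and 4 fell against Fadd fl/fl, among them Ano1, a calcium-activated chloride channel, at -0.54 ± 0.13 (limma, adjusted p = 0.00259), the bicarbonate transporter Slc4a4 at -0.81 ± 0.24 (adjusted p = 0.0127) and the chloride and bicarbonate exchanger Slc26a3 at -0.70 ± 0.21 (adjusted p = 0.0172). Against Casp8 fl/fl 2 fell, Ano1 at -0.45 ± 0.13 (limma, adjusted p = 0.0171) and Cftr, the cystic fibrosis channel, at -0.49 ± 0.15 (adjusted p = 0.033). Over all genes, 8.59% rose and 10.1% fell in the first of these comparisons, and 6.8% and 4.25% in the second. At an unadjusted p under 0.05, 2 of the 17 were higher and 7 lower in the first, and 0 higher and 4 lower in the second. In CASP8 IEC-KO 0 of 17 passed against either floxed group (limma), and at an unadjusted p under 0.05, 1 was higher and 3 lower than in Fadd fl/fl and 2 higher and 3 lower than in Casp8 fl/fl. Without array 22, 1 of 17 passed in the first comparison, and without array 24, 7. In the second, 0 passed without array 117 or 124 and 1 without Casp8 fl/fl array 91 or 119, and 1 passed in CASP8 IEC-KO against Casp8 fl/fl without array 108.

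Genes of epithelial inflammation and of injury and repair that passed were higher in FADD IEC-KO, the direction of Clca4b. Of 19 inflammation genes, 15 rose against Fadd fl/fl, with a median difference of 2.32, and 7 rose against Casp8 fl/fl. Among all genes, 8.59% and 6.8% rose in these comparisons. Pla2g2a, a secreted antibacterial phospholipase, rose by 4.13 ± 0.54 (limma, adjusted p = 3.68e-06) and 3.00 ± 0.54 (adjusted p = 0.000245), and Duoxa2 by 2.76 ± 0.46 (adjusted p = 0.000109) and 2.09 ± 0.46 (adjusted p = 0.00225), in these 2 comparisons. Of 16 injury and repair genes, 7 and 4 rose, among them Plet1 at 3.90 ± 0.81 (limma, adjusted p = 0.000748) and 2.72 ± 0.81 (adjusted p = 0.0229). Unadjusted, 8 were higher and 1 lower in the first comparison, and 6 higher and 0 lower in the second. Duoxa2 and Plet1 were already among the genes most like Clca4b, so their rise is not separate from that likeness. In CASP8 IEC-KO 0 of 19 inflammation genes passed in either series (limma), with 3 and 6 higher at an unadjusted p under 0.05 than in Fadd fl/fl and Casp8 fl/fl. Of the injury and repair genes 0 passed against Fadd fl/fl (4 higher and 1 lower unadjusted), and 2 of 16, Cldn4 (1.15 ± 0.24; limma, adjusted p = 0.0114) and Krt7 (0.53 ± 0.13; adjusted p = 0.0248), rose against Casp8 fl/fl, where 1.8% of all genes rose. Without arrays 22 and 23, 6 of 19 and 0 of 16 passed in FADD IEC-KO against Fadd fl/fl, where Clca4b differed by 4.29 and Clca1 by -0.26. Single arrays also weighed on the counts. Without array 22, 3 of 16 injury and repair genes passed against Fadd fl/fl. Without array 117, 2 of 19 and 1 of 16 passed in FADD IEC-KO against Casp8 fl/fl, and without array 124, 3 of 19 and 2 of 16. In CASP8 IEC-KO against Casp8 fl/fl, 0 of 16 passed without array 87 or 104, 1 without Casp8 fl/fl array 119 and 7 without array 108, and 3 of 19 passed without array 108 and 2 without array 92.

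Markers of other cell types moved in the same colons. Of 11 neutrophil genes, 3 of which (Lcn2, S100a8 and S100a9) the inflammation list also holds, 10 rose in FADD IEC-KO against Fadd fl/fl and 1 against Casp8 fl/fl, and all 12 smooth muscle genes fell in the first comparison and 4 in the second. Among all genes, 8.59% rose and 10.1% fell in the first, and 6.8% and 4.25% in the second. The neutrophil mean was 4.79 to 9.12 in FADD IEC-KO against 4.44 to 4.59 in Fadd fl/fl, and 4.48 to 7.92 in FADD IEC-KO against 4.43 to 4.72 in Casp8 fl/fl. In CASP8 IEC-KO it was 4.40 to 5.34 and 4.57 to 5.86 against the same controls, and 0 of 11 passed (limma; 0 also at an unadjusted p under 0.05). The count of 10 was 3 without array 22. The count of 1 was 0 without any one Casp8 fl/fl array or without array 117 or 124, 2 without array 89 and 3 without array 95. The smooth muscle count of 4 was 0 without array 117, 2 without array 124, 7 without array 89 and 10 without array 95. Over the 50 arrays Clca4b correlated with the neutrophil mean at r = 0.72 and rho = 0.57 (r = 0.52 within groups), and Clca1 with the same mean at r = -0.74 and rho = -0.43 (r = -0.76 within groups).

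Smooth muscle, fibroblast and blood vessel markers were lower where they passed. In CASP8 IEC-KO 0 of 12 smooth muscle genes passed in either series (limma), with 1 lower than in Fadd fl/fl and 2 lower than in Casp8 fl/fl at an unadjusted p under 0.05. The smooth muscle mean was 8.96 to 10.37 in FADD IEC-KO and 10.03 to 10.55 in CASP8 IEC-KO against 10.53 to 10.72 in Fadd fl/fl, and 8.80 to 10.58 in FADD IEC-KO and 9.94 to 10.47 in CASP8 IEC-KO against 10.41 to 10.65 in Casp8 fl/fl. Of 9 fibroblast genes, 5 fell in FADD IEC-KO against Fadd fl/fl. The comparisons with Casp8 fl/fl had 3 that fell in FADD IEC-KO and 3 in CASP8 IEC-KO, while 0 passed in CASP8 IEC-KO against Fadd fl/fl (limma; 3 lower unadjusted). The shares of all genes that fell were 10.1% in FADD IEC-KO against Fadd fl/fl, and 4.25% in FADD IEC-KO and 0.662% in CASP8 IEC-KO against Casp8 fl/fl. Lum, a collagen-binding proteoglycan, fell by 1.07 in FADD IEC-KO against Fadd fl/fl (limma, adjusted p = 0.00099) and by 1.00 in CASP8 IEC-KO against Casp8 fl/fl (adjusted p = 0.0159). The fibroblast mean was 7.83 to 8.58 in FADD IEC-KO and 8.33 to 8.73 in CASP8 IEC-KO against 8.72 to 9.06 in Fadd fl/fl, and 7.97 to 8.83 in FADD IEC-KO and 7.86 to 8.60 in CASP8 IEC-KO against 8.59 to 8.82 in Casp8 fl/fl. The FADD IEC-KO count of 3 was 0 without array 120 and 1 without array 117 or Casp8 fl/fl array 86, and the CASP8 IEC-KO count of 3 was 0 without array 87 or 104.

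Of 7 blood endothelium genes, 1 fell in FADD IEC-KO against Fadd fl/fl, 2 fell in FADD IEC-KO against Casp8 fl/fl, 1 fell in CASP8 IEC-KO against Casp8 fl/fl, and 0 passed in CASP8 IEC-KO against Fadd fl/fl (limma; 0 unadjusted). The shares of all genes that fell were 10.1%, 4.25%, 0.662% and 0.0667%, in the same order, so 1 of 7 in the first comparison was near its share. Pecam1, an endothelial adhesion molecule, differed by -0.44 ± 0.12 in FADD IEC-KO (limma, adjusted p = 0.0144) and -0.49 ± 0.12 in CASP8 IEC-KO (adjusted p = 0.0248) against Casp8 fl/fl. Each count depended on single arrays. The first was 0 without array 22, 23, 24, 25 or the Fadd fl/fl array 26, 29 or 30. The second was 0 without array 120 and 1 without array 89 or 117 or Casp8 fl/fl array 86, 98 or 119. The third was 2 without array 100 and 0 without array 87 or 104 or Casp8 fl/fl array 91, 105 or 119. Not all of the 7 were lower in FADD IEC-KO against Casp8 fl/fl. At an unadjusted p under 0.05, 3 were lower and 1, Eng, was higher, at a mean of 8.25 in FADD IEC-KO and 7.79 in Casp8 fl/fl. Without overlap, 2 of the 7 were lower and 1 higher there. The blood endothelium mean was 6.54 to 7.07 in FADD IEC-KO and 6.91 to 7.22 in CASP8 IEC-KO against 6.74 to 7.23 in Fadd fl/fl, and 6.65 to 7.20 in FADD IEC-KO and 6.58 to 7.03 in CASP8 IEC-KO against 6.93 to 7.11 in Casp8 fl/fl. The part of other cell types in the CLCA values was not tested.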

How the data were processed

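The authors' deposited table holds log2 signals per probe set of 1 Affymetrix array per sample, from 100 ng of total RNA per the labels. Per the submitters' processing notes, it was made in Affymetrix Expression Console and Transcriptome Analysis Console. Their versions and the normalization algorithm are not given in these sources. Array medians were 6.41 to 6.47. The number of arrays, not read depth, limits the precision.

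Of 22142 probe sets, 19527 had 1 gene symbol, 2615 had none and 33 were dropped as second probe sets of a gene, which left 19494 genes. The model was fitted in limma 3.58.1 (R 4.3.3) with 1 mean for each of 10 groups of 5 arrays and 40 residual degrees of freedom. Adjusted p-values are Benjamini-Hochberg over 19494 genes, with 0.05 as the threshold, and SEs come from this fit. Each gene has 1 spread pooled over the 10 groups, so its SEs and p-values do not reflect unequal spread between groups. Groups were called not overlapping where all arrays of one read above all of the other.

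Members, lists and alternatives were chosen with earlier results of these data known. Named genes were the members, Fadd and Casp8, up to 3 passing genes of each list by adjusted p or otherwise up to 2 by size, passing neighbours of the cluster, and the 5 genes most like each member. Muc2, Sh3glb1 and Odf2l were named outside this rule. On data simulated for FADD IEC-KO against Fadd fl/fl with 19494 genes, 48% of log2 changes of 0.5, 96% of 1 and 100% of 2 were recovered. The alternatives were quantile normalization, centring on epithelium markers, removal of the dimmest 40% of genes, trended robust moderation, only the compared arrays, group medians, and leaving out arrays.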

Additional observations from a re-analysis of the deposited data

Results flagged for a closer look

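In groups of 5 arrays, 6 of 50 combinations of a member and a group held an array that stood far from the other four by Dixon's criterion (0.71), where chance gives about 5%. Clca4b was 10.02 on FADD IEC-KO array 21, against 11.88 to 12.60 on the rest of its group. It was 9.82 on FADD IEC-KO RIPK3 IEC-KO array 112, against 7.31 to 7.65. Clca1 was 11.94 on CASP8 IEC-KO Mlkl -/- array 8, against 12.16 to 12.20. Clca4a was 9.30 on FADD IEC-KO array 95, against 10.23 to 10.59. Clca2 was 3.99 on CASP8 IEC-KO array 100, against 4.38 to 4.53, and 4.12 on FADD IEC-KO array 124, against 4.41 to 4.52.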

How the results depend on the processing

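Over 70 differences of the 5 members, 370 alternative values were computed, and 368 moved by less than the spread between replicates. The other 2 came from centring on epithelium markers, where Clca1 was -0.79 in CASP8 IEC-KO against Casp8 fl/fl and -0.30 with FADD and RIPK3 both lost, against the same controls. In 33 the sign changed, each for a difference whose groups overlapped. Each member had 1 probe set, so the lowest-mean probe set gave no value. No paired analysis was possible because the groups share no replicate numbers.

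Counts of list genes that passed depended more on the settings, and the cause was not tested. Mucus and goblet genes in FADD IEC-KO against Fadd fl/fl numbered 7, but 4 with only the compared arrays and 3 without arrays 22 and 23. Against Casp8 fl/fl they numbered 3, but 5 with dim genes removed, 1 with only the compared arrays and 1 to 5 with single arrays left out. In CASP8 IEC-KO against Fadd fl/fl the 1 gene became 0 with quantile normalization, with only the compared arrays and at the lowest with arrays left out. Against Casp8 fl/fl the 0 became 1 with quantile normalization, trended moderation or an array left out, and 2 with dim genes removed. Injury and repair genes in FADD IEC-KO against Fadd fl/fl numbered 7, but 4 with only the compared arrays, 3 (without array 22) to 8 with single arrays left out and 0 without arrays 22 and 23. Against Casp8 fl/fl the 4 became 1 with only the compared arrays or without array 117. In CASP8 IEC-KO they were 1 against Fadd fl/fl with dim genes removed, and against Casp8 fl/fl 0 with only the compared arrays and 0 to 7 with single arrays left out. Inflammation genes in FADD IEC-KO numbered 4 with dim genes removed, a filter that takes out list members, and 6 without arrays 22 and 23, against Fadd fl/fl. Against Casp8 fl/fl they numbered 2 with dim genes removed or only the compared arrays, and 2 (without array 117) to 9 with single arrays left out. In CASP8 IEC-KO against Casp8 fl/fl they numbered 2 with dim genes removed and up to 3 with an array left out. Neighbours of the cluster numbered 2 in FADD IEC-KO against Fadd fl/fl without arrays 22 and 23, and in CASP8 IEC-KO against Casp8 fl/fl 0 with only the compared arrays and 0 to 2 with single arrays left out.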

Other observations

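Surface colonocyte genes, the class to which human CLCA4 belongs, moved both ways in FADD IEC-KO. Of 21 measured, 6 rose and 6 fell in FADD IEC-KO against Fadd fl/fl, and 7 rose and 0 fell in FADD IEC-KO against Casp8 fl/fl. At an unadjusted p under 0.05, 7 were higher and 7 lower in the first, and 9 higher and 5 lower in the second. Over all genes, 8.59% rose and 10.1% fell in the first, and 6.8% and 4.25% in the second. Aqp4, a water channel, rose by 2.05 ± 0.25 (limma, adjusted p = 9.94e-07) and 1.43 ± 0.25 (adjusted p = 0.000183) in these comparisons, and by 1.82 ± 0.25 in CASP8 IEC-KO against Fadd fl/fl (adjusted p = 4.71e-05). Car1, a carbonic anhydrase, fell by 1.06 in the first. In CASP8 IEC-KO against Casp8 fl/fl, 3 rose, among them Krt20 by 0.47 ± 0.11 (limma, adjusted p = 0.0226), which was among the genes most like Clca4a. Unadjusted, 7 were higher and 2 lower there, and 1.8% of all genes rose. In CASP8 IEC-KO against Fadd fl/fl no gene of the list other than Aqp4 passed (limma), with 5 higher and 0 lower unadjusted. The 3 became 0 without array 87 or 104, 1 without Casp8 fl/fl array 105, 5 without array 92 and 7 without array 108. The 7 became 3 without array 117, 4 without array 124 or Casp8 fl/fl array 91, 98 or 105, and 11 without array 95.

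Genes of the type 2 response, which includes targets of interleukin-13, gave 5 that rose and 1 that fell of 21 in FADD IEC-KO against Fadd fl/fl, led by Retnlb, which the goblet list also holds, Chil3 (2.06 ± 0.48; limma, adjusted p = 0.00205) and Arg1 (1.44 ± 0.38; adjusted p = 0.00611). Among all genes, 8.59% rose and 10.1% fell there. Unadjusted, 5 of the 21 were higher and 3 lower at p under 0.05, and Il4, Il5 and Il13 were not among these. The 6 became 3 without array 22. In FADD IEC-KO against Casp8 fl/fl, 2 of 21 rose and 0 fell, Il4ra by 0.72 ± 0.21 (limma, adjusted p = 0.0204) and Retnlb. In that comparison 5 were higher and 0 lower unadjusted, and 6.8% of all genes rose and 4.25% fell. There 0 passed without array 117 or Casp8 fl/fl array 119, and 1 without array 124 or Casp8 fl/fl array 86 or 91. In CASP8 IEC-KO 0 of 21 passed in either series (limma). At an unadjusted p under 0.05, 4 were lower than in Fadd fl/fl, and 1 was higher and 2 lower than in Casp8 fl/fl, where 1 passed without array 108.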
